A study of Mus musculus with 4 samples.

Results

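Rab GTPases are the small G proteins that direct membrane traffic. Their messenger RNAs were followed in cultured primary mouse microglia with and without lysophosphatidylserine (LysoPS). The genes were taken by name, as every gene symbol made of Rab, a number and at most 1 letter, with at least 40 counts summed over the 4 libraries. This gave 56 of the 51826 gene models in the table. Another 3 Rab symbols matched the name and fell below the minimum, Rab17 with 18 counts, Rab25 with 12 and Rab44 with 6. The members closest above it were Rab42 (47 counts), Rab26 (58) and Rab37 (59).

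The cells were shaken off mixed glial cultures of newborn C57BL/6 brains. The 2 mock libraries are labelled untreated, and the 2 LysoPS libraries come from cells given LysoPS for 4 h. LysoPS is a lysophospholipid ligand of GPR34, the receptor in the title of the series. No genetic change is labelled in either group, the sources used here give no LysoPS dose, and whether replicates were separate cultures is not stated. The treatment note shared by all samples speaks of 1 treated replicate, while 2 samples carry the treatment in their own labels, which were followed. The p-values therefore measure the spread between these samples, which may be technical.

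Library totals ranged from 30001098 to 45193959 counts. Replicates of a group correlated at 0.987 in mock and 0.985 after LysoPS across genes (log2 CPM), and their counts differed beyond counting noise (chi-square per degree of freedom 17.3 and 27.1). The cultures held other cells. Summed astrocyte markers stood at 9865 to 10961 CPM (counts relative to the scaled library size) in mock and at 5114 to 5840 after LysoPS, with 9 of 10 lower. Summed microglia and macrophage markers stood at 2407 to 2685 and at 3865 to 4379, with 9 of 16 models of 15 genes higher and 1 lower. Fibroblast and mural markers summed to 14832 to 14945 and then 12372 to 12656 (1 of 10 higher, 3 lower), and endothelial markers to 336 to 342 and then 166 to 190 (2 of 6 tested lower). Oligodendrocyte lineage markers (617 to 623, then 618 to 631; 4 of 10 higher, 1 lower) and neuron markers (635 to 729, then 572 to 790; 1 of 8 higher) overlapped between groups in their sums. No marker on these lists was at 0 in all libraries. In such bulk RNA, fewer cells of a type and less RNA per cell cannot be told apart, and the part of cell composition in the changes below was not tested.

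A Rab protein works as a switch. Exchange factors load it with GTP on a membrane, where it recruits effectors such as tethers, motors and adaptors. GTPase-activating proteins then return it to the GDP form, which GDP dissociation inhibitors (GDI) carry through the cytosol. Each Rab marks a compartment, so the set present in a phagocyte covers secretion through the Golgi, uptake at endosomes and phagosomes, recycling to the surface and delivery to lysosomes.

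Of the 56 members, all of which were tested, 8 were higher after LysoPS and 5 lower at an adjusted p under 0.05 (edgeR's quasi-likelihood test, Benjamini-Hochberg over 19057 genes), and 43 did not pass. The 13 called members are 23.2% of the family, against 25.5% of all tested genes called. In the single directions, 12.8% of all tested genes were higher and 12.6% lower. The share of the family that changed was thus near the background in this fit. With other filters it lay below or above the background, as given in the last section. Against a null of a 1.5-fold change, 3 members passed (Rab20 and Rab32 higher, Rab3b lower), with 5.58% of all tested genes called. The median log2 fold change was 0.03 over the members and -0.01 over all tested genes, and 36 members lay within 0.5 of 0. The LysoPS and mock libraries did not overlap for 38 members (20 above, 18 below), or 67.9%, against 67% of all tested genes. On the authors' length-scaled values (limma on log2(TPM + 0.1)), where 22.8% of all genes were called, the split was 5 higher and 7 lower in place of 8 and 5, where all genes split into 6.98% higher and 15.8% lower. On that scale the median of all genes was -0.18, and that of the Rab genes also -0.18. The calls of Rab5c (adjusted p = 0.0787 by limma), Rab35 (0.0837), Rab39 (0.167) and Rab40b (0.0605) were not made there, and each kept its direction.

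**Figure D1:**
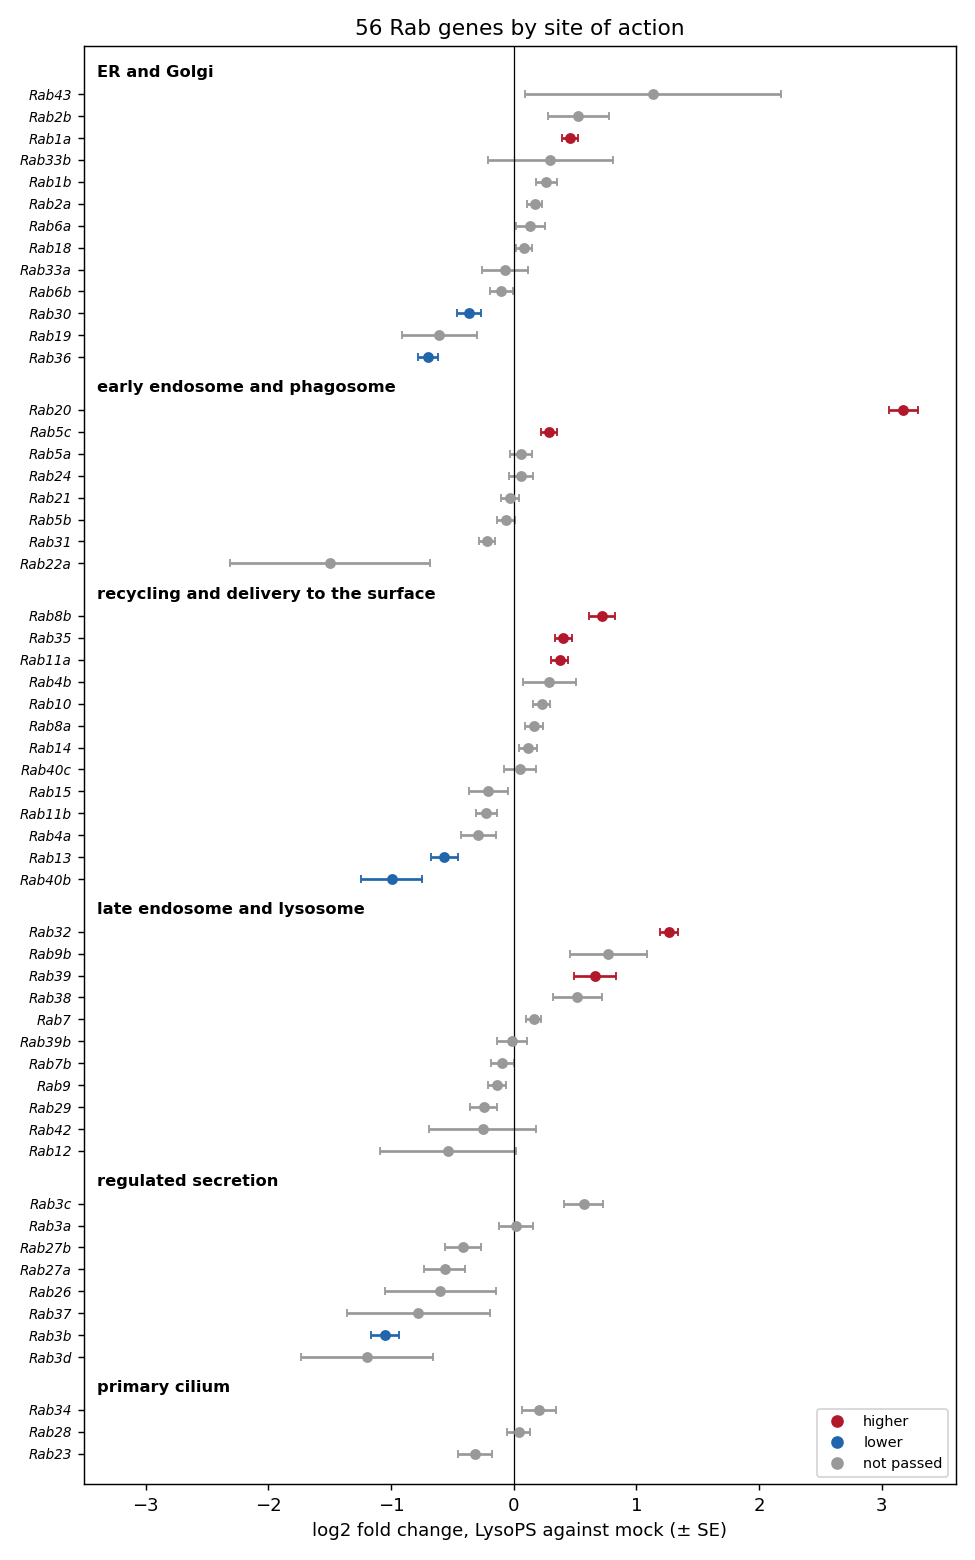
Log2 fold change of each of the 56 Rab genes, LysoPS against mock, with its standard error, grouped by the site of action of the protein. Colours give the edgeR call (8 higher, 5 lower, 43 not passed). Rab20 stands alone at 3.17, and most other members lie near 0.

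Per length, the family was led by genes of the general endocytic and secretory routes. In mock, Rab7, which drives fusion of late endosomes with lysosomes, had the highest mean level at 287 TPM (the authors' level, scaled by transcript length). It was followed by Rab31 at 211 TPM, Rab1b at 203, Rab10 at 198 and Rab2a at 192. These 5 genes made up 34.1% of the summed Rab TPM, and the 10 highest made up 58.2%. Rab7 (288 and 286 TPM in mock, 280 and 308 after LysoPS) did not separate the groups on this scale. Neither did Rab10, which carries receptors to the surface (195 and 200 TPM, then 191 and 220), nor Rab2a of the ER-Golgi route (191 and 194, then 185 and 200). Rab1b, also of that route, was narrowly above mock in both LysoPS libraries (210 and 195 TPM, then 221 and 211). Rab31 works between the Golgi and early endosomes. Its level was lower in both LysoPS libraries (207 and 215 TPM in mock, 151 and 171 after LysoPS), taking it from rank 2 to rank 7. On counts its log2 fold change was -0.22 ± 0.06 (SE) with an adjusted p of 0.0639 by edgeR, which did not pass.

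The summed level of all members was 3186 and 3223 TPM in mock and 3089 and 3246 TPM after LysoPS, so the groups overlapped. The sum in CPM, which is not divided by length, was 3776 and 3797 in mock and 4128 and 4211 after LysoPS, above mock in both libraries. By site of action, ER and Golgi members held 28.5% to 29.6% of the Rab TPM in mock and 29.7% to 30.2% after LysoPS, and late endosome and lysosome members 18.9% to 19.1% and 17.5% to 19.4%. Recycling members held 23.8% and 23.7% in mock and 24.2% and 25.7% after LysoPS, above mock in both libraries. Early endosome and phagosome members held 22.1% and 23.0% and then 21.7% and 21.9%, below mock in both, and cilium members 3.81% and 3.98% and then 3.74% and 3.55%, also below. Regulated secretion members held 1.55% and 1.88% in mock and 1.18% and 1.13% after LysoPS, a small pool that was lower in both. These sums include 5 genes, described below, whose replicates differed by over 3 times in CPM. Rab43, of ER and Golgi, had 40.5 and 4.18 TPM in mock and 48.2 and 42.6 after LysoPS. Rab12, of late endosomes, had 101 and 32.7 TPM after LysoPS. In mock, Rab22a of early endosomes had 6.13 and 32.3 TPM, and Rab3d of secretion 6.97 and 20.1. Shares without these genes were not computed.

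**Figure D2:**
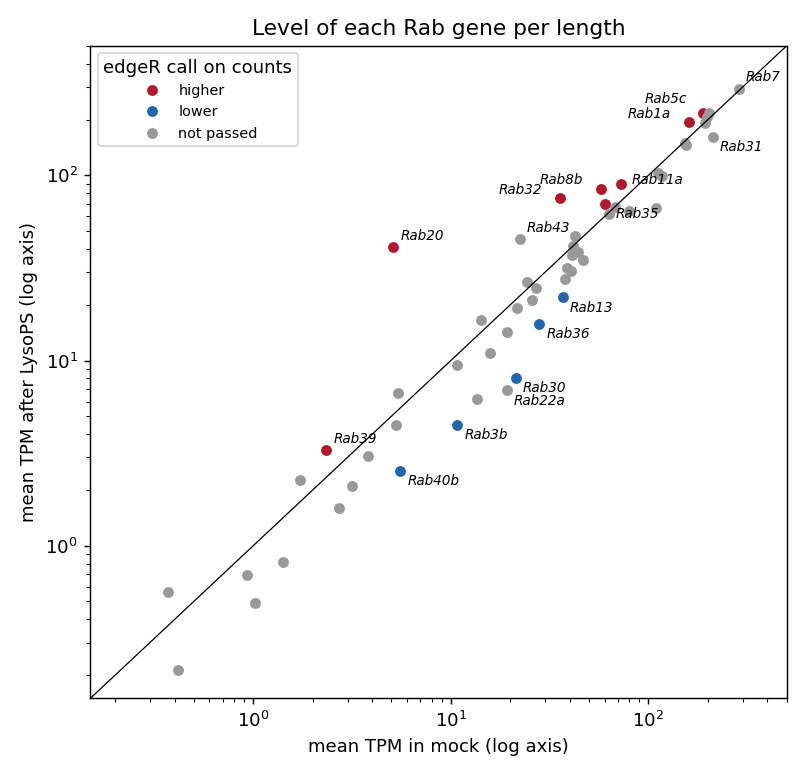
Mean TPM of each Rab gene in mock (x axis) and after LysoPS (y axis), both on log axes, with the line of equal level. Points are coloured by the edgeR call on counts. Rab20 lies far above the line (5.11 TPM in mock, 40.9 after LysoPS), while the most abundant genes lie close to it.

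Rab20 had the largest change of the family. The protein is found on endosomes and phagosomes of macrophages and takes part in phagosome maturation. In GRCm38 its gene (ENSMUSG00000031504) spans 11453518 to 11478710 of chromosome 8, minus strand. Its level was 3.44 and 3.14 CPM in mock and 30.7 and 28.7 CPM after LysoPS, from 106, 136, 1027 and 1253 counts. Every LysoPS value was far above every mock value. The mean rose 9.01-fold, from 3.29 ± 0.209 to 29.7 ± 1.43 CPM (SD, n = 2), with a log2 fold change of 3.17 ± 0.12 (SE) and an adjusted p of 0.000359 by edgeR. Per length, Rab20 moved from rank 46 among the 56 members in mock to rank 23. With any library left out, its log2 fold change stayed between 3.11 and 3.24. A model on the opposite strand, E230013L22Rik, overlaps its start and held 12, 0, 41 and 77 counts in the same order of libraries. Gm20100, on the same strand inside the gene, held 0, 4, 18 and 17 counts. Whether reads were assigned between these models and Rab20 was not tested.

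The bases before the Rab20 start site are shown because this promoter belongs to the member that changed most. Sequences are from RefSeq (GRCm38.p6), read 5′ to 3′ on the strand of the gene, and 46 of the 56 members had an entry. Capitals mark matches to GCGTG or CACGTG, which hold core letters bound by hypoxia-inducible factors (GCGTG and ACGTG), or, in Rab32, to GAGGAAGT, a PU.1 motif of the myeloid lineage. For Rab20 the 180 bases outside the deposited gene model (chr8:11478711-11478890, minus strand, from 250 to 71 bases before the RefSeq start) and a site of 30 bases nearer the start (chr8:11478669-11478698, minus strand) are given. For Rab32, the second largest rise, a site of 30 bases is given (chr10:10558232-10558261, minus strand). For Rab3b, the largest fall among called members, 243 bases are given (chr4:108878820-108879062, plus strand), with no such match.
Rab20 upstream: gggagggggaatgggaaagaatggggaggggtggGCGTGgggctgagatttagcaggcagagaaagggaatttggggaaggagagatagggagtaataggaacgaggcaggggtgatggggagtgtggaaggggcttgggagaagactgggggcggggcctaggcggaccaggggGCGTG
Rab20 site: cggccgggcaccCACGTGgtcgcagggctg
Rab32 site: tagccagggaaGAGGAAGTgccgggaccag
Rab3b upstream: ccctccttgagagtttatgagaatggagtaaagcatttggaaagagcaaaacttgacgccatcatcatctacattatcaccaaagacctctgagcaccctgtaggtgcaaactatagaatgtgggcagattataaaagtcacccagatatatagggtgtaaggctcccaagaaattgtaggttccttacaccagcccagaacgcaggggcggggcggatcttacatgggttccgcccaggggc

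The search covered 10 motifs on both strands of the 250 bases before the start. The Rab20 window held 5 matches to the ACGTG and GCGTG cores, counted on both strands, so that CACGTG (the E-box) counts as 2 overlapping ACGTG matches. The matches begin 45, 46, 64, 75 and 216 bases before the start, and the one at 64 is not in the printed stretches. Such a count or a higher one was found in 1.02% of 32536 promoter windows, and 1 other member, Rab5a, which did not pass, held 6. The windows of the higher members Rab32, Rab5c and Rab11a held neither core, nor did those of the lower members Rab3b and Rab13. G and C made up 65.2% of the Rab20 window and 48.8% of the Rab3b window. GCGTG was found in 5 of 8 windows of higher members, 1 of 3 of lower members with an entry and 14 of 35 of the others, against 28.3% of all windows. ACGTG was found in 1, 0 and 7, against 16.7%, and CACGTG in 1, 0 and 3, against 6.04%. GGGCGG, the GC box, was found in 7, 2 and 24, against 33.0%, and the Rab windows were richer in G and C (median 61.2%) than all windows (52.4%). GAGGAAGT was found in Rab32 and in Rab2b (2.45% of all windows). TTCNNNGAA, a STAT motif, was found in Rab11a and 2 members that did not pass (7.04%). TGANTCA (AP-1), TGACGTCA (CRE), GAAANNGAAA (the interferon element) and the kappaB motif had 0 matches among called members and 1, 1, 1 and 1 among the others, against 6.73%, 1.56%, 2.98% and 3.92% of all windows. These matches are descriptions of letters in the window.

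Among the other members of early endosomes and phagosomes, Rab5c rose slightly. Rab5 proteins are the master organisers of early endosomes. Rab5c was at 169 and 163 CPM in mock and at 202 and 203 CPM after LysoPS, with no overlap, a log2 fold change of 0.29 ± 0.06 (SE) and an adjusted p of 0.0275 by edgeR. Its paralogs Rab5a (0.06 ± 0.09) and Rab5b (-0.06 ± 0.07) did not pass, and their levels overlapped between groups. The TPM ratio of Rab5c to Rab5a was 1.72 and 1.66 in mock and 2.37 and 1.86 after LysoPS, and its ratio to Rab5b was 1.59 and 1.64 and then 2.34 and 2.02. Differences between paralogs were not tested. A TPM ratio also depends on transcript length. The length that counts and FPKM imply for Rab5c, relative to the library's median gene, was 0.658 in LysoPS replicate 1. It was 0.734 to 0.737 in the other libraries. Rab21 (-0.03), which acts in integrin uptake, and Rab24 (0.06), linked to autophagy, did not pass either, nor did Rab31 described above. The Rab5c call was lost without either mock library (adjusted p = 0.139 and 0.204) and without LysoPS replicate 1 (0.0518), while its log2 fold change stayed between 0.26 and 0.31.

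In the late endosomal and lysosomal group, 2 of 11 members were higher and none lower (18.2% called, against 25.5% of all tested genes). Rab32 serves lysosome-related organelles and, in macrophages, the delivery of the antimicrobial metabolite itaconate to vacuoles that hold bacteria. The gene (ENSMUSG00000019832) spans 10545002 to 10558265 of chromosome 10, minus strand. Rab32 was at 35.9 and 34.2 CPM in mock and at 85.5 and 83.1 CPM after LysoPS, so the groups lay far apart. The mean rose 2.41-fold, from 35.0 ± 1.205 to 84.3 ± 1.69 CPM (SD, n = 2), with a log2 fold change of 1.27 ± 0.08 (SE) and an adjusted p of 0.00087 by edgeR. It kept its call in all 13 alternative settings. Rab38, its closest relative, was at 3.93 and 3.72 CPM and then 6.33 and 4.64 CPM (0.52 ± 0.20, adjusted p = 0.123 by edgeR), which did not pass.

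Rab39, which acts in phagosome acidification, went from 2.89 and 3.54 CPM to 5.11 and 5.08 CPM. Its log2 fold change was 0.66 ± 0.17 (SE) with an adjusted p of 0.0458 by edgeR, and the groups did not overlap. The call was lost without each library in turn (adjusted p from 0.0845 to 0.207) and with DESeq2 (0.0541). The pseudogene Rps6-ps3, on the same strand inside this gene, held 148, 241, 302 and 285 counts against 89, 153, 171 and 222 for Rab39, so reads of either may have been assigned to the other, which was not tested. Its paralog Rab39b was at -0.02 ± 0.13. Rab7b, which limits signalling from endosomal Toll-like receptors (-0.09), Rab9 of the route back to the Golgi (-0.14), Rab29, a partner of the kinase LRRK2 (-0.25), and Rab7 itself (0.16 ± 0.06, adjusted p = 0.109 by edgeR) did not pass. Rab9b (0.77 ± 0.31) and Rab42 (-0.25 ± 0.44) had low levels, at most 1.37 and 0.39 CPM, and did not pass.

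Recycling and delivery to the surface held 3 higher and 2 lower members of 13 (38.5% called, against 25.5% of all tested genes). The difference in share was not tested. Rab8b, which carries Golgi and recycling cargo to the plasma membrane, was at 120 and 132 CPM in mock and at 190 and 225 CPM after LysoPS. Both LysoPS libraries were higher, and the log2 fold change was 0.72 ± 0.11 (SE) with an adjusted p of 0.0099 by edgeR. Its paralog Rab8a (0.17 ± 0.08, adjusted p = 0.172) did not pass, and the TPM ratio of Rab8b to Rab8a was 1.31 and 1.46 in mock and 1.76 and 2.31 after LysoPS. Without mock replicate 1 the adjusted p of Rab8b was 0.0527.

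Rab35 controls fast recycling from the plasma membrane. It was at 77.0 and 76.5 CPM in mock and at 102 CPM in both LysoPS libraries, a log2 fold change of 0.41 ± 0.07 (SE) with an adjusted p of 0.013 by edgeR. Rab11a of the slow recycling endosome was at 70.8 and 69.0 CPM and then at 90.7 CPM in both (0.38 ± 0.07, adjusted p = 0.0174 by edgeR). Replicates of both genes lay close together and the groups did not overlap. Rab11b, the paralog of Rab11a, was lower in both LysoPS libraries, at 80.7 and 75.8 CPM and then 70.4 and 63.6 CPM, and did not pass (-0.22 ± 0.09, adjusted p = 0.123). The TPM ratio of Rab11a to Rab11b was 1.42 and 1.68 in mock and 2.33 and 2.81 after LysoPS. Their implied lengths varied between libraries by 1.13 and 1.15 times. The calls of Rab35 and Rab11a were lost without mock replicate 1 (adjusted p = 0.0971 and 0.109) or mock replicate 2 (0.102 and 0.134), with log2 fold changes that stayed between 0.40 and 0.41 for Rab35 and between 0.36 and 0.39 for Rab11a.

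The lower members of this group were Rab13 and Rab40b. Rab13, known from the assembly of epithelial tight junctions, was at 19.3 and 18.3 CPM in mock and at 13.4 and 11.9 CPM after LysoPS. Its log2 fold change was -0.57 ± 0.11 (SE) with an adjusted p of 0.0224 by edgeR, and without mock replicate 1 or 2 the adjusted p was 0.123 or 0.0862. Rab40b carries a SOCS box that joins it to a ubiquitin ligase. It was at 4.93 and 4.21 CPM and then at 1.82 and 2.72 CPM, a log2 fold change of -0.996 ± 0.25 with an adjusted p of 0.041 by edgeR. That call was lost without mock replicate 1 (adjusted p = 0.157), mock replicate 2 (0.0979) or LysoPS replicate 1 (0.0702). Its paralog Rab40c stayed near its mock level (0.05 ± 0.13), with an implied transcript length that varied by 1.43 times between libraries and 4 overlapping models on the opposite strand. Rab14 (0.12) and Rab4a (-0.29), Rab4b (0.29) and Rab15 (-0.21), all recycling endosome Rabs, did not pass.

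**Figure D3:**
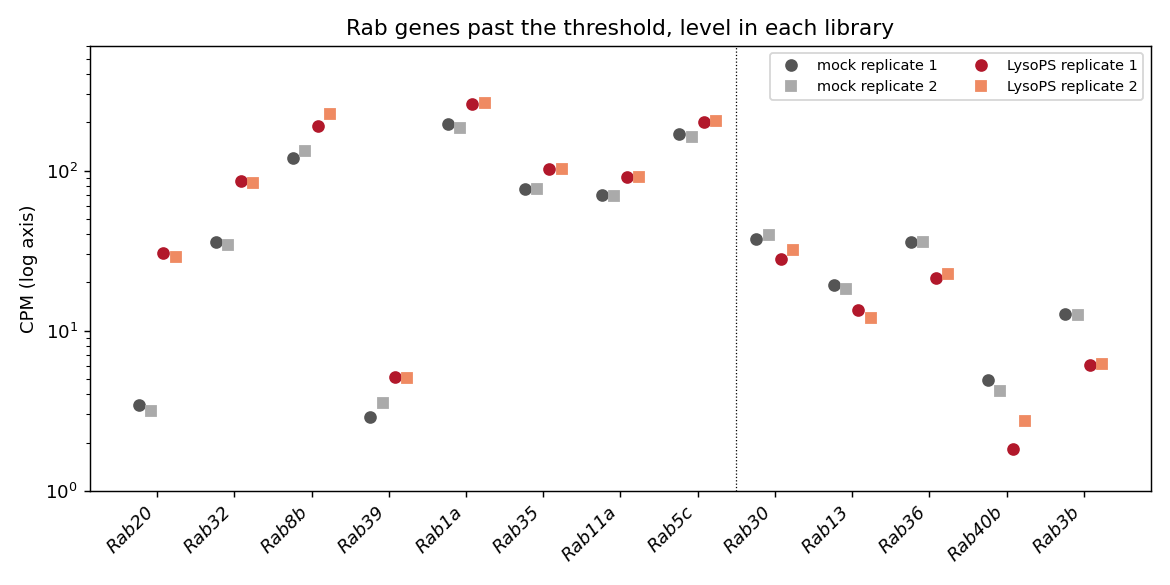
Level of the 13 called Rab genes in each library, in CPM on a log axis, in order of log2 fold change. The dotted line divides the 8 higher from the 5 lower genes, and in all 13 the LysoPS and mock points do not overlap.

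ER and Golgi members moved in both directions, with 1 of 13 higher and 2 lower (23.1% called, against 25.5% of all tested genes). Rab1a, which starts traffic from the ER to the Golgi, rose from 196 and 185 CPM to 260 and 263 CPM (log2 fold change 0.46 ± 0.06, adjusted p = 0.0082 by edgeR). Without mock replicate 2 its adjusted p was 0.0732. Rab1b was at 181 and 163 CPM and then 216 and 197 CPM, and did not pass (0.26 ± 0.09, adjusted p = 0.0813). Rab36, a Golgi Rab linked to the position of lysosomes, fell from 35.5 and 35.7 CPM to 21.3 and 22.6 CPM (-0.70 ± 0.08, adjusted p = 0.00557 by edgeR). This call held without each library, with adjusted p-values up to 0.0381. Rab34, its relative placed here with the primary cilium, was at 28.9 and 35.8 CPM and then 39.9 and 34.8 CPM, which overlapped. Of the remaining Golgi and ER members, Rab2b (0.53 ± 0.25), Rab18 of lipid droplets (0.08), the Golgi Rabs Rab6a (0.13) and Rab6b (-0.10), Rab33a (-0.07) and Rab19 (-0.61 ± 0.30, at most 1.14 CPM) did not pass. The other cilium members, Rab23 (-0.32) and Rab28 (0.04), did not pass.

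Rab30, a Golgi Rab also tied to autophagy of bacteria, gave different sizes on the 2 scales. In counts it went from 37.4 and 39.6 CPM to 27.9 and 31.7 CPM (log2 fold change -0.37 ± 0.10, adjusted p = 0.0494 by edgeR). That call was lost without mock replicate 1 (adjusted p = 0.145), mock replicate 2 (0.235) or LysoPS replicate 1 (0.107), with DESeq2 size factors (0.0521) and with no filter (0.0569). In TPM it went from 20.1 and 22.6 to 7.24 and 8.92, a log2 fold change of -1.40 (adjusted p = 0.00698 by limma), against -0.18 for the median gene on that scale. The transcript length that its counts and FPKM imply, relative to the library's median gene, was 1.53 and 1.49 in mock and 2.78 and 2.70 after LysoPS. The implied length was higher in both LysoPS libraries. Whether the transcripts of Rab30 differ between groups was not tested on reads.

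Regulated secretion had the lowest median of the groups (-0.58 over 8 members), with 1 lower and none higher. That is 12.5% called, against 25.5% of all tested genes. Its negative values include those of Rab26 and Rab37, which had few counts, and of Rab3d, whose mock replicates differed by over 3 times. Rab3b, a Rab of secretory granules and synaptic vesicles, was at 12.8 and 12.5 CPM in mock and at 6.06 and 6.15 CPM after LysoPS. The mean was 2.07-fold lower, with a log2 fold change of -1.05 ± 0.11 (SE), an adjusted p of 0.00403 by edgeR and no overlap between groups. The call held without each library (adjusted p up to 0.0284). Its implied length varied by 1.22 times between libraries. Rab27a, which docks secretory granules and exosome-bearing bodies, was at 3.67 and 3.63 CPM and then 2.39 and 2.54 CPM, and did not pass (-0.56 ± 0.17, adjusted p = 0.0652). Its paralog Rab27b (-0.41 ± 0.15) did not pass either. Rab3c stood higher in both LysoPS libraries (6.14 and 7.40 CPM, then 9.23 and 10.9 CPM; 0.57 ± 0.16, adjusted p = 0.056), and the synaptic Rab3a stayed near its mock level (0.02 ± 0.14). Rab26 (-0.60 ± 0.45) and Rab37 (-0.78 ± 0.59) rested on at most 17 and 21 counts in a library and did not pass. Beside the fall of Rab3b, the median log2 fold change was -0.96 for astrocyte, -0.56 for endothelial and -0.13 for fibroblast and mural markers. It was 0.16 for neuron, 0.20 for oligodendrocyte lineage and 0.50 for microglia and macrophage markers. Whether cell composition had a part in the fall of Rab3b was not tested.

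Another 5 members could not be compared in this way because replicates of a group differed by over 3 times. Rab43, a Golgi Rab, was at 85.2 and 6.27 CPM in mock and at 106 and 93.7 CPM after LysoPS. Its log2 fold change of 1.13 (adjusted p = 0.467 by edgeR) became 3.99 without mock replicate 1 (adjusted p = 0.00091) and 0.23 without mock replicate 2. Rab22a, an early endosome Rab, was at 15.7 and 104 CPM and then 20.9 and 21.8 CPM. Its -1.49 became -2.29 without mock replicate 1 (adjusted p = 0.00123) and 0.44 without mock replicate 2, so the direction turned. Rab3d, a granule Rab, was at 10.6 and 34.7 CPM and then 10.5 and 9.33 CPM, and its -1.199 became -1.81 without mock replicate 1 (adjusted p = 0.00467) and -0.10 without mock replicate 2.

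Rab33b, which binds the autophagy factor ATG16L1, was at 16.1 and 50.8 CPM in mock and at 37.0 and 45.7 CPM after LysoPS. Its log2 fold change of 0.30 became 1.36 without mock replicate 2 (adjusted p = 0.0161 by edgeR) and -0.30 without mock replicate 1. Rab12 was at 97.1 and 93.0 CPM in mock and at 102 and 28.9 CPM after LysoPS. Its -0.54 became -1.72 without LysoPS replicate 1 (adjusted p = 0.00152) and 0.11 without LysoPS replicate 2. In 3 of these 5 genes mock replicate 2 was the library apart, low for Rab43 and high for Rab22a and Rab3d. For Rab33b mock replicate 1 was the low one and for Rab12 LysoPS replicate 2. The implied length varied between libraries by 1.36, 1.30, 1.25, 2.82 and 1.09 times in Rab43, Rab22a, Rab3d, Rab33b and Rab12. Of the 45 members with a mean of at least 5 CPM these 5 are 11.1%, against 127 (1.01%) of all 12627 such genes.

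**Figure D4:**
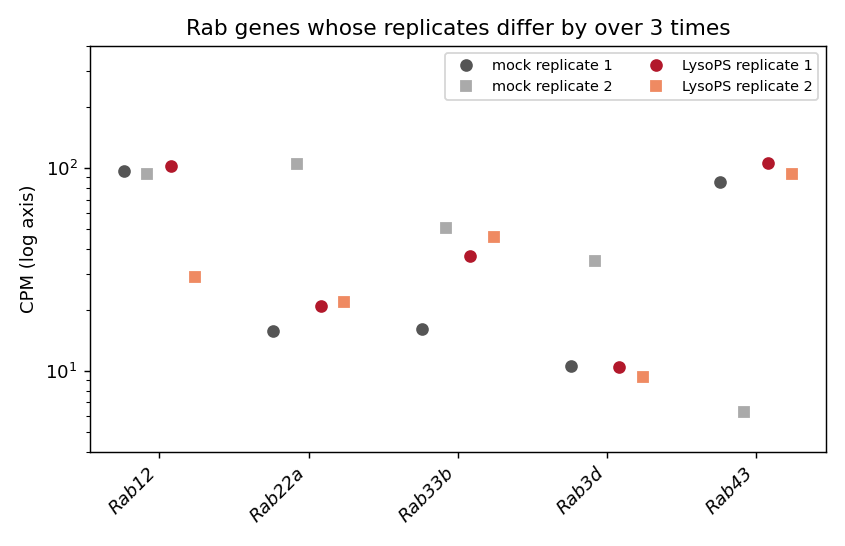
CPM (log axis) in each library of the 5 Rab genes whose replicates within a group differ by over 3 times. Rab43 is low in mock replicate 2 alone (6.27 CPM), Rab22a and Rab3d are high there, and Rab12 is low in LysoPS replicate 2 alone (28.9 CPM).

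The genes that switch Rab proteins on and off, or act with them, moved in both directions. Of 132 tested regulators and effectors, 27 were higher, 12 lower and 93 did not pass, so 29.5% were called against 25.5% of all tested genes, with a median log2 fold change of 0.05. On log2(TPM + 0.1) the split was 12 higher (9.09%) and 15 lower (11.4%), against 6.98% and 15.8% of all genes. On counts the shares were 20.45% higher and 9.09% lower, against 12.84% and 12.63% of all tested genes. With either mock library left out, fewer genes passed and the pooled share of the list was no larger than that of all genes. By direction, the higher share stayed above that of all genes there and the lower share below it. These differences in share were not tested. Of 38 exchange factors, 9 were higher and 2 lower (28.9% called, against 25.5% of all tested genes). Dennd1c, an exchange factor of Rab35, went from 4.93 and 5.53 CPM to 10.7 and 9.72 CPM (log2 fold change 0.96). Rabgef1, which activates Rab5, rose by 0.87 and Madd, which activates Rab3 and Rab27, by 0.83, with implied lengths varying by 1.24 and 1.25 times. Rin2 (-0.61), another activator of Rab5, and Als2cl (-0.68), a homolog of the Rab5 activator alsin, fell. Rin3 (0.89, adjusted p = 0.0406 by edgeR) and Rin1 (0.36, adjusted p = 0.0431), also on this list, were higher.

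Of 33 GTPase-activating proteins, 6 were higher and 5 lower (33.3% called, against 25.5% of all tested genes). Tbc1d9 rose by 0.82, and Tbc1d10b (0.64) and Tbc1d13 (0.58), both of which can inactivate Rab35, rose too. Tbc1d13 went from 68.6 and 68.1 CPM to 106 and 98.7 CPM. Tbc1d4, which acts on Rab10 (-0.51, implied length varying by 1.47 times), Tbc1d16, which acts on Rab4 (-0.40), and Tbc1d9b (-0.30) fell. Of 8 genes for GDI and lipid attachment, 2 were higher, none lower and 6 did not pass. The called share of this short list was thus near the 25.5% of all tested genes. The 2 higher genes were Arl6ip5, of the PRA1 family of Rab-binding membrane proteins (0.37), and Rabggta, a subunit of the enzyme that prenylates Rab proteins (0.37).

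Of 53 effectors, 10 were higher and 5 lower (28.3% called, against 25.5% of all tested genes). Sytl2, an effector of Rab27, went from 10.2 and 12.3 CPM to 34.9 and 35.2 CPM, a log2 fold change of 1.64 ± 0.12 (SE) with an adjusted p of 0.00147 by edgeR. Ehbp1l1, an effector of Rab8, went from 44.9 and 40.4 CPM to 118 and 103 CPM (1.37 ± 0.11), and Rilpl2, which binds Rab8 and Rab10, from 23.1 and 20.7 CPM to 57.7 and 50.5 CPM (1.30 ± 0.11). All 3 separated the groups. Rab11fip4, an effector of Rab11, fell from 94.4 and 98.0 CPM to 46.6 and 55.3 CPM (-0.92 ± 0.10). Ehbp1 (-0.77), a relative of Ehbp1l1, and Appl2 (-0.72), an effector of Rab5, fell as well. The exchange factor of Rab32, made of Hps1 (-0.17) and Hps4 (-0.20), and its effector Ankrd27 (0.04) did not pass, and these 3 were chosen after their values were seen.

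**Figure D5:**
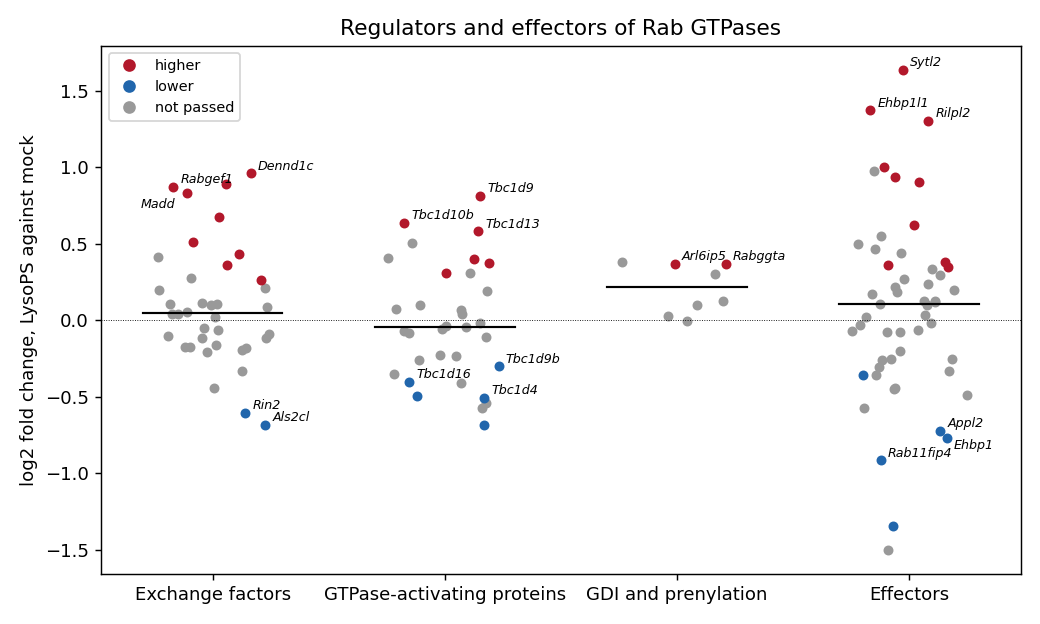
Log2 fold change, LysoPS against mock, of 132 regulators and effectors of Rab proteins in 4 lists, with each list's median as a bar and points spread sideways only for legibility. Colours give the edgeR call (27 higher, 12 lower), and the effectors Sytl2, Ehbp1l1 and Rilpl2 lie highest.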

How the data were processed

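Poly(A) RNA of 4 libraries was sequenced paired-end. Per the submitters' processing notes, FastQC 0.11.2, Trimmomatic 0.36, HISAT2 and StringTie were used with GRCm38. Which program counted reads, with which settings, annotation release and strandedness, is not given in the sources used here. Each library has 3 columns per the file headers, a count, an FPKM and a TPM, made by the authors. The deposited counts, whole and not normalized, were tested. The deposited TPM values served to compare levels between genes, and the deposited FPKM values only to derive, with the counts, the transcript length implied in each library (20 counts or more).

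Genes were kept by filterByExpr (minimum count 10), scaled by TMM (factors 0.966 to 1.04) and tested with edgeR 4.0.16 in R 4.3.3 (quasi-likelihood F test, 2 residual degrees of freedom, two-sided, adjusted over 19057 genes; biological coefficient of variation 0.150). A standard error is the log2 fold change divided by the square root of F. The fit draws each gene's variance toward a trend over all tested genes. This error is thus not the spread of the gene's own replicates alone. Alternatives changed the scaling (DESeq2 size factors), the filter (none, or at least 5 CPM in 2 libraries) or the tool (DESeq2 1.42.0, limma-voom of limma 3.58.1), and added a replicate block, each library left out, a 1.5-fold null, a restriction to models with an implied length varying by at most 1.2 times and, chosen after the data were seen, limma on log2(TPM + 0.1).

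All called members and those with a 2-fold change are named, with the 3 smallest p-values in each direction of each regulator list. The sites of action and the lists come from general knowledge, and members and lists were chosen with earlier results of these data known. Others were named after their values were seen. Motifs were chosen likewise. Promoter windows are the 250 bases before the RefSeq start nearest the deposited gene's 5′ end.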

Additional observations from a re-analysis of the deposited data

How the results depend on the processing

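Of 165 values that the 13 called Rab genes had in the 13 alternatives, all kept their direction, 126 kept the call and 39 lost it. Rab20 and Rab32 kept theirs in all 13, and Rab3b in the 12 that had a value for it. The alternatives reuse the same 4 libraries, and the groups did not overlap in CPM for any of the 13 called genes. A kept direction was thus largely fixed in advance. Each test rests on 2 libraries a group. With 1 library left out, assuming that a lone library varies like the other group, 4 to 9 Rab genes were higher and 2 to 6 lower, and 10 to 23 regulators and effectors were higher and 3 to 15 lower. The low ends came without mock replicate 1 or mock replicate 2 (4 Rab genes higher in each). There 14.3% and 10.7% of the Rab genes were called, against 10.6% of all genes in each. Without LysoPS replicate 1 the shares were 21.4% and 19.9%, and without LysoPS replicate 2 they were 26.8% and 27.7%. The median of the members lay between -0.01 and 0.03, and the log2 fold change of Rab22a between -2.29 and 0.44, a reversal without mock replicate 2. Against a 1.5-fold null, which 5.58% of all tested genes passed, 2 Rab genes (Rab20, Rab32) were higher and 1 (Rab3b) lower. There 4 regulators were higher and 0 lower by edgeR's glmTreat, with 5 lower at an unadjusted p under 0.05, and no other tool was run for that null. On log2(TPM + 0.1), 5 Rab genes and 12 regulators were higher, and the Rab median was -0.18, as was that of all genes. Rab31, Rab29 and Rab9 passed as lower there. In the main fit on counts they were also below mock in both LysoPS libraries (log2 fold changes -0.22, -0.25 and -0.14) and did not pass. The replicate numbers are not stated to mark shared cultures, and the deviations of same-numbered libraries correlated at 0.0775. A fit with the replicate number as a block gave 10 Rab genes higher and 6 lower, and 31 and 14 regulators. That is 28.6% of the Rab genes and 34.1% of the regulators, against 28.5% of all genes. It added Rab1b, Rab3c, Rab10 and Rab31 and lost Rab39. The stricter filter and the restriction to stable models each left 45 of the 56 members. Under the stricter filter 26.67% of the Rab genes were called, against 34.29% of all genes. Among stable models the shares were 31.11% and 32.93%, and with no filter 23.21% and 16.49%. These differences in share were not tested. Members with under 60 counts in all, such as Rab26, Rab37 and Rab42, are limited by depth.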
